A study of Homo sapiens with 18 samples.

Results

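Caspases are cysteine proteases that cells make as inactive precursors and switch on inside large protein complexes. The initiator caspases each have a platform of their own, the death receptor complex for CASP8, the cytochrome c apoptosome for CASP9 and the PIDDosome for CASP2, while CASP1 and CASP4 are inflammatory caspases that act in pyroptosis. Inhibitor of apoptosis proteins (IAPs) hold this machinery in check: XIAP binds and blocks active caspases directly, and BIRC2 (cIAP1) and BIRC3 (cIAP2) are ubiquitin ligases that sit with TRAF2 at TNF receptors, protect cells from CASP8-driven death and keep the kinase MAP3K14 (NIK) low. Platinum drugs damage DNA and kill sensitive cells largely by apoptosis, so these genes lie downstream of the lesion the drug makes.

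The genes described here are 5 caspases (CASP1, CASP2, CASP4, CASP8 and CASP9) and 3 IAPs (BIRC2, BIRC3 and XIAP), found by gene symbol in a table of 12853 genes. The table held 7 of the 8, namely 4 caspases and 3 IAPs. CASP1 was not in it and is not analysed here. RNA had been sequenced in 18 libraries, 3 for each of 6 ovarian cancer cell lines that form 3 pairs of a platinum-sensitive and a platinum-resistant line. A2780 is a sensitive line that its label calls endometrial or ovarian, and CP70 (A2780cp70) is a resistant line derived from it in culture. A patient with high-grade serous ovarian cancer (HGSOC) gave the ascites cells of the PEA pair. The sensitive PEA1 dates from before any platinum drug and the resistant PEA2 from a relapse that no longer responded. The PEO pair stems from another patient with HGSOC, who had already received platinum when PEO1 was taken. That tumour still responded then, and PEO4 was taken once it had become clinically resistant. All 6 lines grew in the same medium with 10% serum, and no drug treatment of the sequenced cells is named. Each resistant state is thus represented by 1 line, and the labels do not say whether the 3 libraries of a line came from separate cultures, so the p-values below measure the spread between these libraries, which may be technical.

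The libraries held 1344098 to 7067336 reads on the listed genes (median 2926659), and the smallest level that 3 reads can show, used here as the floor, lay between 0.452 and 2.18 CPM (reads per 1000000 reads of a library, after the authors' scaling). Of 10 serous and epithelial markers, 10 were above the floor in PEA2, PEO1 and PEO4, 8 in PEA1, 4 in CP70 and 1 in A2780, and PAX8 and WT1 were at the floor in both A2780 and CP70. Of 6 leukocyte markers only PTPRC was in the table, and of 3 endothelial markers only CDH5. Both were above the floor in PEA2 alone, PTPRC at 20.1 to 25.1 CPM and CDH5 at 25.3 to 36.1 CPM. Of 4 fibroblast markers in the table, 1 was above the floor in PEA1 (DCN, LUM and COL1A2 at the floor) and 2 in PEA2 (DCN and LUM at the floor), so the summed level of 366 to 447 CPM in PEA1 came from a single gene, against 3.45 to 6.40 CPM in PEA2. All 4 were above the floor in CP70 (summed level 50.5 to 57.2 CPM), 3 in A2780 (6.19 to 12.9 CPM), 2 in PEO4 and 1 in PEO1. The part of these marker differences in the results of the pairs was not tested.

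Between the lines of a pair, log2FC is the resistant minus the sensitive mean of the log2 CPM values, and a gene counts as changed at a false discovery rate (FDR) below 0.05 from limma, adjusted over 12853 genes. In the A2780 pair, 5 of the 7 genes changed, 4 higher and 1 lower in CP70. In the PEA pair 2 changed, 1 higher and 1 lower in PEA2, and in the PEO pair 5 changed, 3 higher and 2 lower in PEO4. Over all genes, 39.9% passed between A2780 and CP70 (22.2% higher, 17.7% lower), 61.9% between PEA1 and PEA2 (32.5% higher, 29.4% lower) and, for PEO1 and PEO4, 41.5% (19.6% higher, 21.9% lower). With 7 genes, no direction is read from these shares for any of the 3 pairs. The count fell to 3 without PEO1 replicate 2, PEO1 replicate 3 or PEO4 replicate 2 and to 2 without PEO4 replicate 1, and in PEA2 it rose to 4 with the replicate block, with the pair fitted alone and with voom weights. For A2780 and CP70 it ran from 4 to 6 over all alternatives. The median size of log2FC, without its sign, was 1.03 for the members and 0.42 for all genes between A2780 and CP70, 0.61 and 0.68 between PEA1 and PEA2, and 0.44 and 0.43 between PEO1 and PEO4. With |log2FC| above 2 also required, BIRC3 was the 1 member that passed between A2780 and CP70 (higher, background 9.06%) and the 1 that passed between PEO1 and PEO4 (lower, background 6.22%). No member passed between PEA1 and PEA2 (background 14.1%). No member was higher in the resistant line at this FDR in all 3 pairs, as 1.59% of all genes were.

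**Figure D1:**
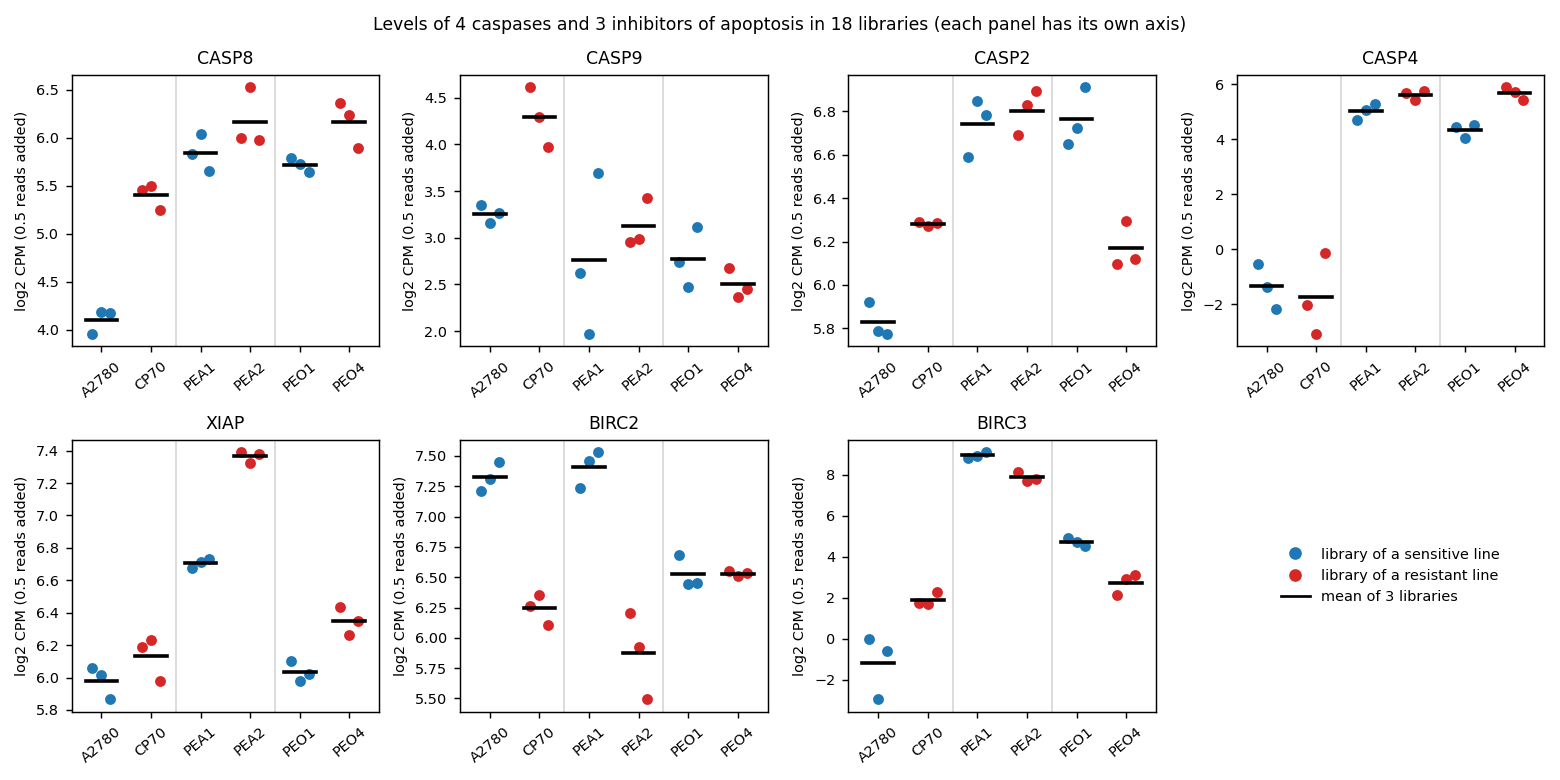
Levels of the 7 genes as log2 CPM (with the 0.5 reads that the authors added to each count) in each of the 18 libraries, blue for sensitive and red for resistant lines, with the mean of 3 libraries as a bar and an axis of its own for each gene. BIRC3 spans 10.13 between the highest and lowest line means and CASP2 spans 0.97, and the A2780 and CP70 libraries of CASP4 lie far below those of the other 4 lines.

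CASP8 is the initiator caspase of the death receptor pathway. In A2780 its 3 libraries read 15.5, 18.2 and 18.1 CPM, and in CP70 43.8, 45.1 and 38.0 CPM. The lines did not overlap, and CASP8 was 2.45-fold higher in CP70 (log2FC 1.29, SE 0.16, FDR 1.15e-06 by limma). The PEA1 libraries read 57.0, 65.9 and 50.3 CPM and the PEA2 libraries 63.7, 92.2 and 62.9 CPM. These overlapped, with log2FC 0.32 and an FDR of 0.0822 by limma. The PEO1 libraries read 55.3, 52.8 and 50.0 CPM, all below the PEO4 libraries at 82.2, 75.2 and 59.4 CPM (log2FC 0.44, FDR 0.0286 by limma). This last call was lost without PEO1 replicate 2 (FDR 0.0631), PEO1 replicate 3 (FDR 0.0871), PEO4 replicate 1 (FDR 0.136) or PEO4 replicate 2 (FDR 0.0881), and the call missed in the PEA pair was made without PEA1 replicate 2 (FDR 0.0420) or PEA2 replicate 3 (FDR 0.0462) and with the replicate block (FDR 0.0447), all by limma. By line mean the order was PEA2 (6.17 log2 CPM), PEO4 (6.16), PEA1 (5.84), PEO1 (5.72), CP70 (5.40) and A2780 (4.11). Among neighbours in that order, only CP70 and A2780 differed beyond their spread.

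CASP8 lies on the plus strand of chromosome 2 (GRCh37, chr2:202098166-202226559, ENSG00000064012), 4015 bases after CASP10, another death receptor caspase, and 56756 bases after CFLAR, which codes for the caspase-8 inhibitor FLIP. These neighbours did not follow it. CASP10 had 0 reads in all 3 PEO4 libraries against 131 reads in PEO1, which makes it at least 29.2-fold lower in PEO4 (against 3 reads over the line), while its log2FC was 1.57 in the PEA pair (FDR 0.00200 by limma). CASP10 had at most 4 reads in any A2780 or CP70 library. CFLAR passed in the PEA pair, where it fell (log2FC -0.51, FDR 0.00621 by limma), and it gave 0.17 for A2780 and CP70 and 0.04 for PEO1 and PEO4. On its other side, 15371 bases away, TRAK2, a motor adaptor of mitochondrial transport, rose in CP70 (log2FC 1.54, FDR 4.39e-09 by limma) and fell in PEO4 (log2FC -0.37, FDR 0.0255). Within 1000000 bases of CASP8, the table held 21 other genes, of which 5 rose and 7 fell in CP70, 5 rose and 4 fell in PEA2, and 0 rose and 4 fell in PEO4. These counts, and those around the other members below, are to be read beside the shares of all genes given above.

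The RefSeq annotation gives CASP8 3 start sites, and the 250 bases before the most upstream of them (GRCh38.p14, chr2:201233213-201233462, plus strand) are shown because they hold a gamma-activated site, the STAT-binding motif TTCNNNGAA, in capitals. A match in these letters is a description and no evidence of binding.
CASP8: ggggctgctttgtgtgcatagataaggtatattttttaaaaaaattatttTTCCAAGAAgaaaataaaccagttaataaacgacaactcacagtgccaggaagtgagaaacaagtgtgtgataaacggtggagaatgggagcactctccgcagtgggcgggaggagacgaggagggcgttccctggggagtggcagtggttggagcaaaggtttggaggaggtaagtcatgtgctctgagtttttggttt
The motif was searched on both strands and stood in 6.57% of 34788 distinct windows of the same length. This match was the only one in the 14 windows of the 7 members, to be read beside that share. No member window held the interferon-stimulated response element (ISRE), searched in the same way, which stood in 3.02% of all windows.

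CASP9 is the initiator caspase of the mitochondrial pathway, and its values rest on few reads, 5 to 149 per library. In A2780 it read 10.2, 8.90 and 9.61 CPM and in CP70 24.5, 19.6 and 15.6 CPM. All CP70 libraries were higher, by 2.05-fold (log2FC 1.03, SE 0.34, FDR 0.0196 by limma). The call was lost with quantile normalization (FDR 0.108), when either A2780 replicate 2 (FDR 0.0536) or CP70 replicate 1 (FDR 0.0905) was left out. PEA1 read 6.17, 3.92 and 12.9 CPM, from 5 to 22 reads, and PEA2 7.73, 7.92 and 10.7 CPM. PEA1 was the most variable line of CASP9 (SD 0.87 on the log2 scale, n = 3), its libraries enclosed those of PEA2, and without PEA1 replicate 3 the log2FC rose from 0.36 to 0.82 (FDR 0.0254 by limma), while without PEA1 replicate 2 it was -0.04. PEO1 read 6.69, 5.54 and 8.67 CPM and PEO4 6.40, 5.17 and 5.48 CPM, which overlapped (log2FC -0.28, FDR 0.555 by limma). In the order of line means, from CP70 (4.29 log2 CPM) over A2780 (3.26), PEA2, PEO1 and PEA1 to PEO4 (2.50), CP70 stood apart from A2780 and no other neighbours differed beyond their spread. CASP9 lies on the minus strand of chromosome 1 (chr1:15817327-15853029, ENSG00000132906), 279 bases from DNAJC16, a DnaJ-family gene that rose in CP70 (log2FC 0.47, FDR 0.00678 by limma) and fell in PEA2 (log2FC -0.71, FDR 0.000106). EFHD2, 60492 bases to the other side, fell in PEO4 (log2FC -2.52, FDR 3.73e-12) and rose in PEA2 (log2FC 0.83, FDR 4.55e-06). Within the window there were 15 genes, of which 5 rose and 3 fell in CP70, 2 rose and 5 fell in PEA2, and 1 rose and 2 fell in PEO4.

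CASP2 is activated on the PIDDosome after DNA damage and centrosome defects. It had the narrowest range of the members, 0.97 between line means on the log2 scale, narrower than in all but 12.7% of genes. A2780 read 60.6, 55.3 and 54.7 CPM and CP70 78.2, 77.1 and 78.0 CPM. The lines did not overlap, and CASP2 was 1.37-fold higher in CP70 (log2FC 0.45, SE 0.10, FDR 0.00114 by limma). PEO1 read 100.4, 106 and 120.4 CPM and PEO4 68.3, 78.6 and 69.6 CPM. Here the resistant line was lower in every library, by 1.51-fold (log2FC -0.59, FDR 8.22e-05 by limma). PEA1 at 96.2, 115 and 110.2 CPM overlapped with PEA2 at 103, 114 and 119 CPM (log2FC 0.06, FDR 0.604 by limma). The order was PEA2, PEO1 and PEA1 (6.80, 6.76 and 6.74 log2 CPM, not distinguished), CP70 and PEO4 (6.28 and 6.17, not distinguished) and A2780 (5.83). The gene lies on the plus strand of chromosome 7 (chr7:142985308-143004789, ENSG00000106144), 167 bases after TMEM139, so reads at that boundary could be split. TMEM139 held at most 3 reads in any A2780 or CP70 library, rose in PEA2 (log2FC 1.25, FDR 0.00159 by limma) and gave 0.31 in the PEO pair. ZYX, the focal adhesion gene 73599 bases to the other side, rose in CP70 (log2FC 0.30, FDR 0.0479) and fell in PEO4 (log2FC -0.41, FDR 0.00864). These were the pairs and directions in which CASP2 changed. Of the 13 genes within the window, 2 rose and 0 fell in CP70, 4 rose and 4 fell in PEA2, and 1 rose and 5 fell in PEO4. In the A2780 pair CTAGE6, ARHGEF35, ARHGEF34P, OR2A9P and OR2A1-AS1 all had log2FC -0.55, the value of genes with 0 reads in both lines.

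CASP4, the human sensor of intracellular lipopolysaccharide, cleaves gasdermin D. Its levels set the A2780 pair apart from both HGSOC pairs. The A2780 libraries held 2, 1 and 0 reads and the CP70 libraries 1, 0 and 3 reads, all at or below the floor, so no fold is given for that pair. In PEA1 it read 25.8, 33.1 and 39.4 CPM and in PEA2 50.9, 43.0 and 54.6 CPM. In PEO1 it read 22.0, 16.6 and 22.7 CPM and in PEO4 60.0, 52.9 and 43.2 CPM. In both HGSOC pairs every library of the resistant line was above every library of the sensitive line, with log2FC 0.61 between the PEA lines (FDR 0.311 by limma) and 1.35, or 2.55-fold, between the PEO lines (FDR 0.0410 by limma).

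These tests shared 1 estimate of the spread over the 6 lines, and the spread of CASP4 was largest where it was at the floor, with SDs of 0.82 in A2780 and 1.50 in CP70 against 0.18 to 0.31 in the other lines (log2 scale, n = 3). With each pair fitted alone the FDR was 0.0233 between PEA1 and PEA2 and 7.28e-06 between PEO1 and PEO4. In the shared fit the PEO call was lost when any 1 of its 6 libraries was left out (FDR 0.0594 to 0.121), and also with quantile normalization (0.0570), with the replicate block (0.0690) and without the trend of the variance (0.0639). By line mean, PEO4 (5.69 log2 CPM), PEA2 (5.62), PEA1 (5.01) and PEO1 (4.34) followed each other without neighbours that differed, and PEO1 exceeded A2780 by 5.69 on the log2 scale (FDR 4.27e-09 by limma), a size that depends on the 0.5 reads added.

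CASP4 lies on the minus strand of chromosome 11 (chr11:104813593-104840093, ENSG00000196954), 2564192 bases after BIRC2. PDGFD, a platelet-derived growth factor gene 778486 bases away, was the only other gene of the table within 1000000 bases, and it held at most 10 reads in any library of the A2780 and PEA pairs. In the PEO pair PDGFD gave log2FC 1.06 (FDR 0.0528 by limma). The 250 bases before the CASP4 start (GRCh38.p14, chr11:104968575-104968824, minus strand, read 5′ to 3′ towards the gene) are shown because its RNA was at the floor in a whole pair of lines. None of the 3 motifs searched stood in this window, so it has no capitals.
CASP4: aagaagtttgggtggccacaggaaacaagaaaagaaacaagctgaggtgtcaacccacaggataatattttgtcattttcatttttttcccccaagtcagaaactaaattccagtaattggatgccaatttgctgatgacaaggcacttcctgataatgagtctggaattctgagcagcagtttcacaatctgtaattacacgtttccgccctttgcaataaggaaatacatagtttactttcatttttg
No methylation or accessibility measurement of this window entered the comparison.

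XIAP binds active caspases, CASP9 among them, and blocks them. Its libraries were the most even of the members in the PEA pair. PEA1 read 102, 105 and 106 CPM and PEA2 168, 160.5 and 166 CPM. The 2 lines were far apart relative to their SDs of 0.03 each on the log2 scale (n = 3), and XIAP was 1.58-fold higher in PEA2 (log2FC 0.66, SE 0.09, FDR 4.00e-06 by limma). PEO1 read 68.7, 63.1 and 65.0 CPM and PEO4 86.7, 76.9 and 81.3 CPM. PEO4 was higher in every library, by 1.24-fold (log2FC 0.31, FDR 0.00971 by limma), and without PEO4 replicate 1 the FDR was 0.0503. A2780 at 66.7, 64.6 and 58.3 CPM overlapped with CP70 at 72.8, 75.0 and 63.0 CPM (log2FC 0.15, FDR 0.213 by limma). In the order PEA2 (7.36 log2 CPM), PEA1 (6.71), PEO4 (6.35), CP70 (6.13), PEO1 (6.04) and A2780 (5.98), each of the 4 highest lines exceeded the next beyond the spread except CP70, which was not distinguished from PEO1, nor PEO1 from A2780. XIAP lies on the plus strand of the X chromosome (chrX:122993562-123047822, ENSG00000101966). STAG2, a cohesin gene 46240 bases after it, rose in PEA2 (log2FC 0.56, FDR 5.38e-05 by limma) and in PEO4 (log2FC 0.28, FDR 0.0250), where XIAP also rose, and fell in CP70 (log2FC -0.50, FDR 0.000348), where XIAP was not called. THOC2, an mRNA export gene 126656 bases before it, was called in none of the pairs (log2FC -0.20, -0.18 and 0.22), and no other gene of the table lay within the window.

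BIRC2 codes for cIAP1. A2780 read 148, 159 and 175 CPM and CP70 76.7, 81.9 and 69.0 CPM. The lines did not overlap, and BIRC2 was 2.12-fold lower in CP70 (log2FC -1.08, SE 0.14, FDR 2.22e-06 by limma). PEA1 read 151, 176 and 185 CPM and PEA2 73.9, 60.9 and 45.0 CPM. Again no libraries overlapped, and the level was 2.89-fold lower in PEA2 (log2FC -1.53, FDR 9.71e-09 by limma). PEO1 read 103, 87.1 and 87.6 CPM and PEO4 93.6, 90.9 and 92.7 CPM. The PEO4 libraries lay inside the range of the PEO1 libraries (log2FC 0.00, SE 0.14, FDR 0.994 by limma). BIRC2 was thus lower in the resistant line of 2 pairs, called under every alternative that was run, and in the PEO pair the sign of its log2FC changed with the library left out. The order was PEA1 and A2780 (7.41 and 7.33 log2 CPM, not distinguished), then PEO4, PEO1 and CP70 (6.53, 6.53 and 6.24, neighbours not distinguished) and PEA2 (5.88), which was below CP70 (FDR 0.0232 by limma).

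BIRC3 codes for cIAP2 and is a textbook target gene of NF-kB. It had the widest range of the members, 10.13 between line means on the log2 scale, wider than in 98.2% of genes. PEA1 read 444, 486 and 547 CPM and PEA2 276, 209 and 218 CPM. PEO1 read 30.5, 26.3 and 23.0 CPM and PEO4 4.33, 7.51 and 8.72 CPM. In both HGSOC pairs the resistant line was lower in every library. In the PEO pair BIRC3 was 4.02-fold lower (log2FC -2.01, SE 0.47, FDR 0.00181 by limma), at the very edge of the limit of 2, which it missed in several settings, among them without PEO1 replicate 1 or PEO4 replicate 1. In the PEA pair it was 2.11-fold lower (log2FC -1.08), and the FDR of 0.0545 by limma missed the threshold in the shared fit, while it was 6.09e-05 with the pair fitted alone, 1.22e-07 with voom weights, 0.00338 with 2 reads added, 0.0377 with the replicate block, 0.0427 with quantile normalization and 0.0494 with median-of-ratios scaling. It was missed in the other 8 settings, all 6 that left out a library among them.

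The A2780 libraries of BIRC3 held 3, 0 and 1 reads and the CP70 libraries 20, 13 and 18 reads. All CP70 libraries were higher (log2FC 3.09, FDR 2.09e-05 by limma), and because A2780 was at the floor the size is better given by the summed reads, whose ratio per library size was 8.74 with a 95% exact interval of 3.21 to 33.3 that covers counting error only. The log2FC was 1.99 with quantile normalization, 2.04 with 2 reads added to each count, 2.21 without A2780 replicate 2 and at most 3.67 (without A2780 replicate 1), and each kept an FDR below 0.05 by limma, although 1.99 lies under the limit of 2. The SD of BIRC3 was 1.55 in A2780 and 0.15 to 0.53 in the other lines on the log2 scale (n = 3), and this spread entered the shared fit. In the order PEA1 (8.94 log2 CPM), PEA2 (7.86), PEO1 (4.72), PEO4 (2.72), CP70 (1.90) and A2780 (-1.19), PEA2 exceeded PEO1 by 3.14 on the log2 scale (FDR 8.06e-06 by limma), PEO1 exceeded PEO4 and CP70 exceeded A2780, while PEA1 and PEA2, and PEO4 and CP70, were not distinguished in the shared fit.

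**Figure D2:**
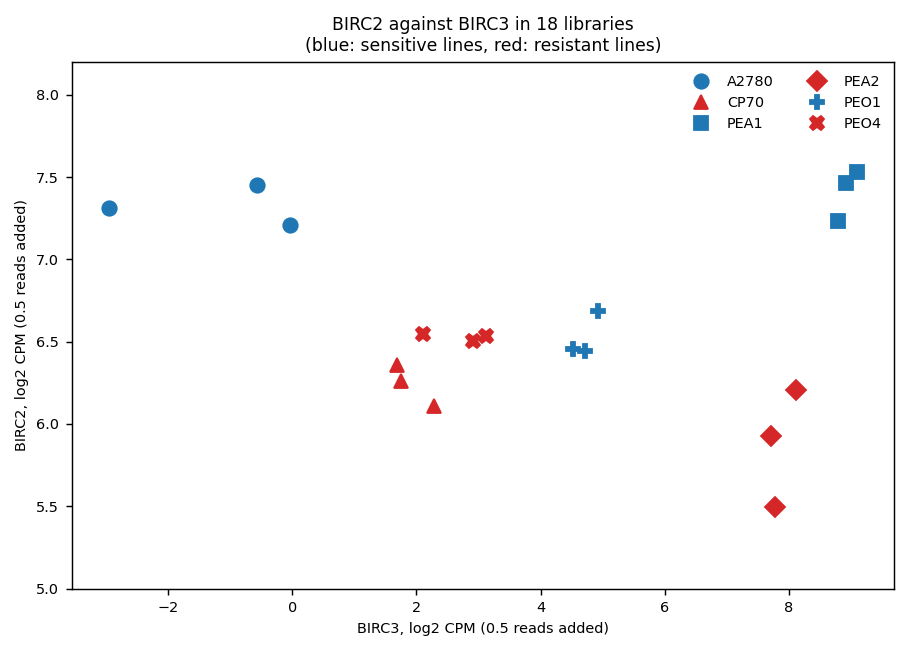
BIRC2 against BIRC3 in the 18 libraries, both as log2 CPM with 0.5 reads added, with a symbol for each line, blue for sensitive and red for resistant. The A2780 and PEA1 libraries share the highest BIRC2 levels (7.33 and 7.41 on average) at opposite ends of the BIRC3 axis (-1.19 and 8.94).

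BIRC3 and BIRC2 lie head to tail on the plus strand of chromosome 11 with 7808 bases between them (GRCh37, chr11:102188215-102210134, ENSG00000023445, and chr11:102217942-102249401, ENSG00000110330), and their levels did not move together. Over the 6 line means their Pearson correlation was -0.16, a description of 6 points only. In the A2780 pair BIRC2 fell and BIRC3 rose, in the PEA pair BIRC2 fell and BIRC3 was lower with a call that depended on the setting, and in the PEO pair BIRC3 fell and BIRC2 was not called. YAP1, the Hippo pathway effector 84060 bases before BIRC3, fell in CP70 (log2FC -0.36, FDR 0.00558 by limma) and rose in PEO4 (log2FC 0.54, FDR 0.000134), and its log2FC was -0.19 in the PEA pair (FDR 0.0955). TMEM123, 17662 bases after BIRC2, fell in PEA2 (log2FC -0.60, FDR 0.000240) and gave -0.17 for A2780 and CP70 and 0.01 for PEO1 and PEO4. Of the 8 other genes of the table within the window, 1 rose and 3 fell in CP70, 2 rose and 3 fell in PEA2, and 2 rose and 1 fell in PEO4.

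The 250 bases before the BIRC3 start (GRCh38.p14, chr11:102317234-102317483, plus strand) and before the more upstream of the 2 RefSeq starts of BIRC2 (chr11:102346964-102347213, plus strand) are shown because these neighbours code for similar proteins and had such different ranges. Capitals mark matches to the NF-kB consensus, which was searched on both strands.
BIRC3: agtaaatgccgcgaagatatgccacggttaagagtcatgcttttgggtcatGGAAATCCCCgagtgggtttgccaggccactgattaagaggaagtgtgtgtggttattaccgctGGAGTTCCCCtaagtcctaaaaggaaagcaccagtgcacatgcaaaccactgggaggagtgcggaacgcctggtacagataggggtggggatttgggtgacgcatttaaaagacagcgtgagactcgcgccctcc
BIRC2: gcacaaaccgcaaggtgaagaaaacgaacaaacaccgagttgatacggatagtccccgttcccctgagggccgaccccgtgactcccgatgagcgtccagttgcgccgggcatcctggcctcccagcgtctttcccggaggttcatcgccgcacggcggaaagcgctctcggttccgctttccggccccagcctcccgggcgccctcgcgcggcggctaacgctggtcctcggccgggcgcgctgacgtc
The BIRC3 window held 2 matches, at positions -199 to -190 and -135 to -126 relative to the start, and neither BIRC2 window held any. At least 1 match stood in 9.95% of the 34788 windows and at least 2 stood in 1.71%. Among the other members, 1 of the 2 CASP2 windows held a match. A window without a match says only that these letters are not in it.

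**Figure D3:**
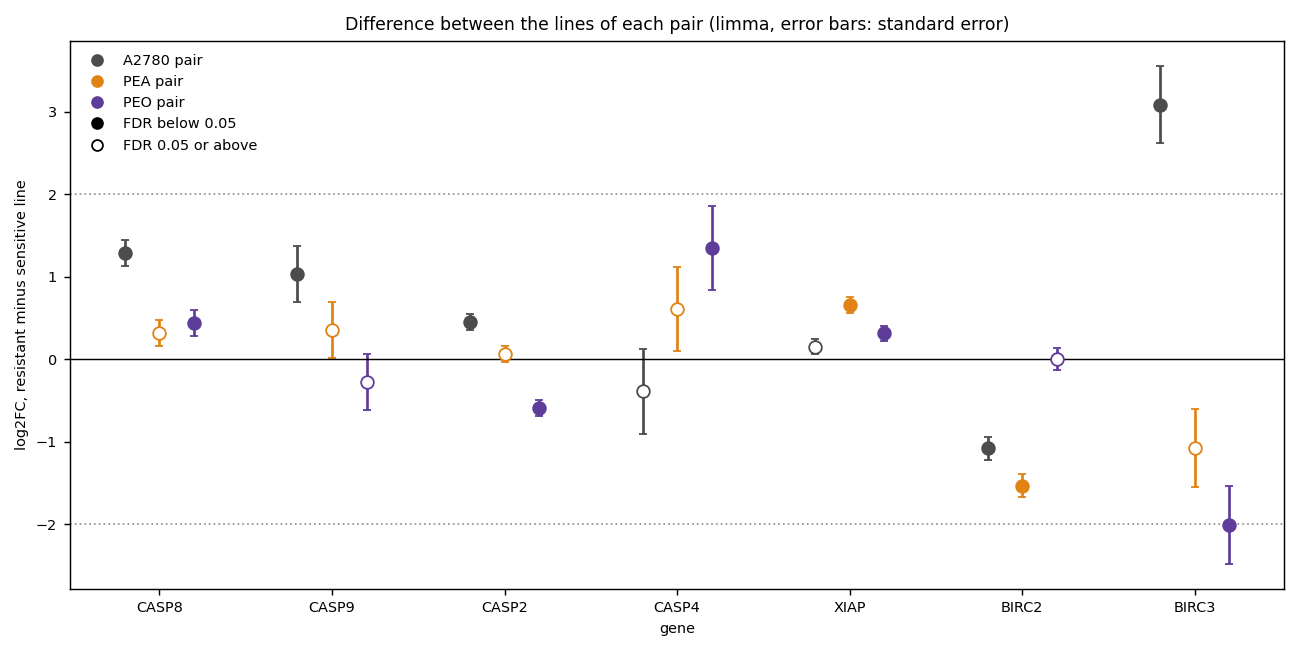
log2FC (resistant minus sensitive line, log2 scale) of the 7 genes in the 3 pairs with standard errors from limma, filled where the FDR was below 0.05, with dotted lines at 2 and -2. Signs are shared by all 3 pairs for CASP8 and XIAP, which lie above 0, and BIRC3 lies above 2 in the A2780 pair and below 0 in both HGSOC pairs.

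Whether the difference between resistant and sensitive lines itself differed among the pairs was tested as the difference of their log2FC. Between the A2780 and PEA pairs it differed at an FDR below 0.05 by limma for CASP8, CASP2, XIAP and BIRC3, with a background of 57.5% of all genes. Between the A2780 and PEO pairs it differed for CASP8, CASP9, CASP2, BIRC2 and BIRC3 (background 47.5%), and between the PEA and PEO pairs for CASP2, XIAP and BIRC2 (background 58.7%). The widest of these was BIRC3, whose log2FC in the A2780 pair exceeded that in the PEO pair by 5.10 (SE 0.67, FDR 3.07e-06 by limma). CASP2 was the member that differed in all 3 of these comparisons. CASP4 was called in none, with FDRs from 0.0551 (A2780 and PEO pairs) to 0.395 (PEA and PEO pairs) by limma in the shared fit. In a joint model with terms for pair and for platinum sensitivity, 3 members passed, CASP8 (log2FC 0.69, SE 0.14, FDR 0.00304 by limma), XIAP (log2FC 0.37, SE 0.08, FDR 0.00336) and BIRC2 (log2FC -0.87, SE 0.18, FDR 0.00265), against 24.1% of all genes. The libraries of a line count as replicates in that model. With the 3 pairs as the replicates, limma called 0 genes of the whole table, with 372 genes at an unadjusted p below 0.05, and the members had unadjusted p-values between 0.113 and 0.999. Lines of different pairs were compared only to order the levels. Over the 12 contrasts between such lines 70.3% of all genes passed. Of the 35 neighbouring places in the orders of the 7 members 13 differed. This count is not comparable with that share, because it covers only adjacent lines, some of them of the same pair. The share of neighbouring places that differed over all genes was not computed.

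Levels of different genes can be compared only per length, and for this the CPM of each gene were divided by the kilobases of its annotated exons together, a length that need not be the one the authors counted on. BIRC2 was the most abundant member per kilobase in A2780 (35.6 CPM per kb), CP70 (16.8), PEO1 (20.5) and PEO4 (20.5). In the PEA lines BIRC3 ranked highest, at 65.8 CPM per kb in PEA1 and 31.3 in PEA2. BIRC3 and CASP4 were at the floor in A2780, and in PEO4 BIRC3 was the lowest of the 7 (0.916 CPM per kb). XIAP was steadier, from 6.64 CPM per kb in A2780 to 17.3 in PEA2, where it held rank 2. CASP2 exceeded CASP8 and CASP9 per kilobase in A2780 (7.09 against 2.39 and 1.82) and in every other line but PEO4, where CASP8 was at 9.99 and CASP2 at 9.00. CASP9 was the lowest caspase per kilobase in PEA1, PEA2, PEO1 and PEO4 (1.08 to 1.67).

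**Figure D4:**
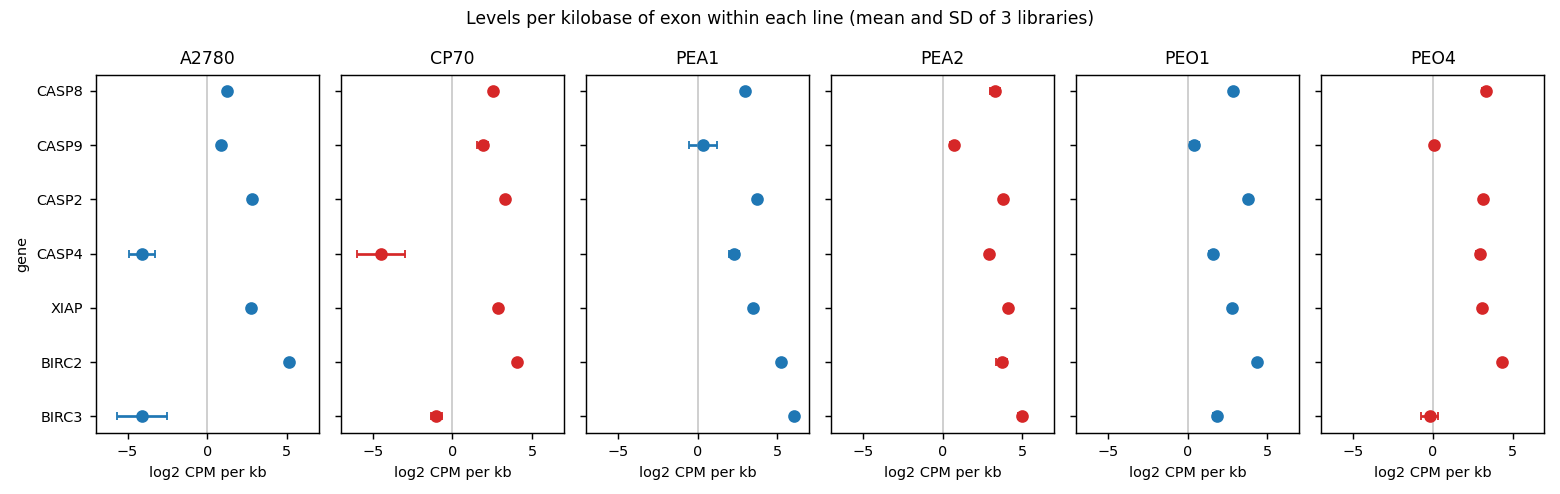
Level per kilobase of annotated exon (log2 CPM per kb, mean and SD of 3 libraries) of the 7 genes within each line, blue for sensitive and red for resistant. BIRC2 lies furthest right in A2780, CP70, PEO1 and PEO4 and BIRC3 in PEA1 and PEA2, and CASP4 lies below -4 in A2780 and CP70.

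The genes whose log2 values followed a member most closely over the 18 libraries were sought among 11228 genes with a mean above 2, by Pearson correlation, as a description only, since the 3 libraries of a line share their source. Closest to CASP8 were APOL6 (r = 0.975), an apolipoprotein L gene, and DTX3L (r = 0.966), a ubiquitin ligase that partners PARP9. Closest to XIAP were NFKBIZ (r = 0.980), an atypical gene of the IkB family of NF-kB regulators, and PRRG1 (r = 0.971). Closest to BIRC3 were SQSTM1 (r = 0.974), the autophagy receptor p62, and RNF144B (r = 0.972), a ubiquitin ligase. CASP4 had SYT13 (r = 0.979) and NTNG1 (r = 0.978), both with at most 1 read in any A2780 or CP70 library. BIRC2 had CYP1B1 (r = 0.951), a cytochrome P450, and ACAA2 (r = 0.910), a mitochondrial thiolase. CASP2 had TMEM178B (r = 0.960) and FGD6 (r = 0.958), and CASP9 the lowest values, CTDNEP1 (r = 0.860) and IDE (r = 0.853).

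Around the members, 8 lists of 61 pathway genes gave 45 genes in the table. Of these 22 changed in CP70 (48.9%, 11 higher and 11 lower), 25 in PEA2 (55.6%, 14 higher and 11 lower) and 15 in PEO4 (33.3%, 7 higher and 8 lower), to be read beside the shares of all genes (39.9%, 61.9% and 41.5%). The median log2FC of the 45 genes was 0.06, 0.04 and 0.01 in the A2780, PEA and PEO pairs, and that of all genes was -0.02, 0.01 and -0.02. Since RNA came from whole cultures, fewer cells that express a gene and less RNA per cell cannot be told apart in any of these values.

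Of the other caspases, 4 of 6 were in the table. Over this list 1 gene rose and 2 fell in CP70, 2 rose in PEA2 and 1 fell in PEO4. CASP10 here and GSDMD among the CASP4 targets were counted as lower in CP70 although no A2780 or CP70 library held more than 4 reads of either. Of the other IAP family, 2 of 4 were in the table, and both fell in PEA2 and were not called elsewhere. They were BIRC5, or survivin, with log2FC -1.02 (FDR 2.98e-06 by limma) and BIRC6 with -0.65 (FDR 1.27e-05).

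In the list of mitochondrial release, the apoptosome and IAP antagonists (7 of 8 in the table), 1 gene rose and 1 fell in CP70, 1 rose and 3 fell in PEA2, and 1 rose and 1 fell in PEO4. CYCS, or cytochrome c, fell in CP70 (log2FC -0.65, FDR 0.000935 by limma) and in PEO4 (log2FC -0.37, FDR 0.0410) and rose in PEA2 (log2FC 0.67, FDR 0.000373). APAF1, the scaffold on which CASP9 is activated, rose in CP70 (log2FC 0.51, FDR 0.0351), fell in PEA2 (log2FC -0.59, FDR 0.00956) and gave 0.47 in the PEO pair (FDR 0.0507). DIABLO, whose product SMAC displaces IAPs from caspases, fell in PEA2 (log2FC -0.86, FDR 0.0165). XAF1, an interferon-induced antagonist of XIAP, rose in PEO4 (log2FC 4.28, FDR 4.57e-08), from 4 to 17 reads in PEO1 to 92 to 144 in PEO4, in the same pair in which XIAP rose by 0.31. It gave 0.16 in the PEA pair and at most 1 read in any A2780 or CP70 library.

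Of the death receptors and their complex, 9 of 11 were in the table, with 3 higher and 2 lower in CP70, 2 higher and 2 lower in PEA2, and 2 higher in PEO4. TNFSF10, the ligand TRAIL, held 11 to 32 reads in A2780 and 0 to 1 in CP70, a ratio of A2780 over CP70 of 101 with a 95% exact interval of 17.5 to 4031 from counting error. FAS, the receptor that recruits CASP8 through FADD, rose in PEA2 (log2FC 2.25, FDR 1.29e-10 by limma). RIPK1, the kinase whose ubiquitin chains BIRC2 and BIRC3 build, rose in PEO4 (log2FC 0.87, FDR 0.000259).

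Of the partners of the IAPs in TNF and NF-kB signalling, 9 of 10 were in the table, with 3 higher in CP70, 3 higher and 2 lower in PEA2, and 2 higher and 4 lower in PEO4. MAP3K14, the kinase that the BIRC2 and BIRC3 complex marks for degradation, fell from 309 to 345 reads in the PEA1 libraries to 8 to 22 in the PEA2 libraries (log2FC -5.29, FDR 2.13e-13 by limma), and it rose in CP70 (log2FC 0.67, FDR 0.0230). TRAF2, the adaptor that brings BIRC2 and BIRC3 to the receptor, fell in the same pair (log2FC -1.52, FDR 2.23e-06) and gave 0.12 and 0.00 in the A2780 and PEO pairs. TNFAIP3 (A20), an NF-kB target that edits ubiquitin at this complex, rose in CP70 (log2FC 1.16, FDR 0.000445), rose in PEA2 (log2FC 2.00, FDR 3.54e-07) and fell in PEO4 (log2FC -1.25, FDR 0.000227). In CP70 and PEO4 this was also the direction of BIRC3, and in PEA2 BIRC3 lay the other way, with a call that depended on the setting. TNFAIP3 held 4 to 8 reads in the A2780 libraries. NFKBIA, of the same list, was not called in CP70 (log2FC 0.16, FDR 0.328 by limma). It rose in PEA2 (log2FC 0.85, FDR 6.10e-06) and fell in PEO4 (log2FC -1.19, FDR 1.87e-07). SHARPIN, a subunit of the linear ubiquitin ligase, rose in PEO4 (log2FC 1.56, FDR 5.78e-07).

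For the platforms and targets of CASP1 and CASP4, 5 of 13 genes were in the table, with 1 higher and 2 lower in CP70, 2 higher and 2 lower in PEA2, and 1 higher and 2 lower in PEO4. IL1B, the cytokine that CASP1 matures, had 0 reads in all PEA1 libraries and 379 to 948 in PEA2, which makes it at least 350.2-fold higher in PEA2 (against 3 reads over the line). IL18, a target of both caspases, fell in PEO4 (log2FC -2.83, FDR 3.02e-06 by limma) and rose in PEA2 (log2FC 2.09, FDR 5.22e-05), and it was the gene counted as higher in CP70, from 0 to 1 reads in A2780 to 1 to 5 in CP70. CARD8, an inflammasome sensor, fell in CP70 (log2FC -0.74, FDR 0.00565) and in PEA2 (log2FC -1.29, FDR 1.27e-05). Both PIDDosome genes were in the table and both fell in CP70, CRADD, the adaptor that binds CASP2, by 2.67 on the log2 scale (FDR 1.09e-05), in the pair where CASP2 rose by 0.45. PIDD rose in PEA2 (log2FC 1.30, FDR 0.00104) and neither was called in the PEO pair. Of 7 caspase targets that carry out cell death, all in the table, 2 rose and 2 fell in CP70, 3 rose in PEA2 and 1 rose in PEO4. Among them ROCK1, which drives membrane blebbing, rose in CP70 (log2FC 1.35, FDR 8.54e-09), DFFB, the caspase-activated nuclease, rose in PEA2 (log2FC 1.70, FDR 0.00905, from as few as 1 read and with libraries that overlapped), and LMNA, the nuclear lamin, rose in PEO4 (log2FC 0.36, FDR 0.0119).

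**Figure D5:**
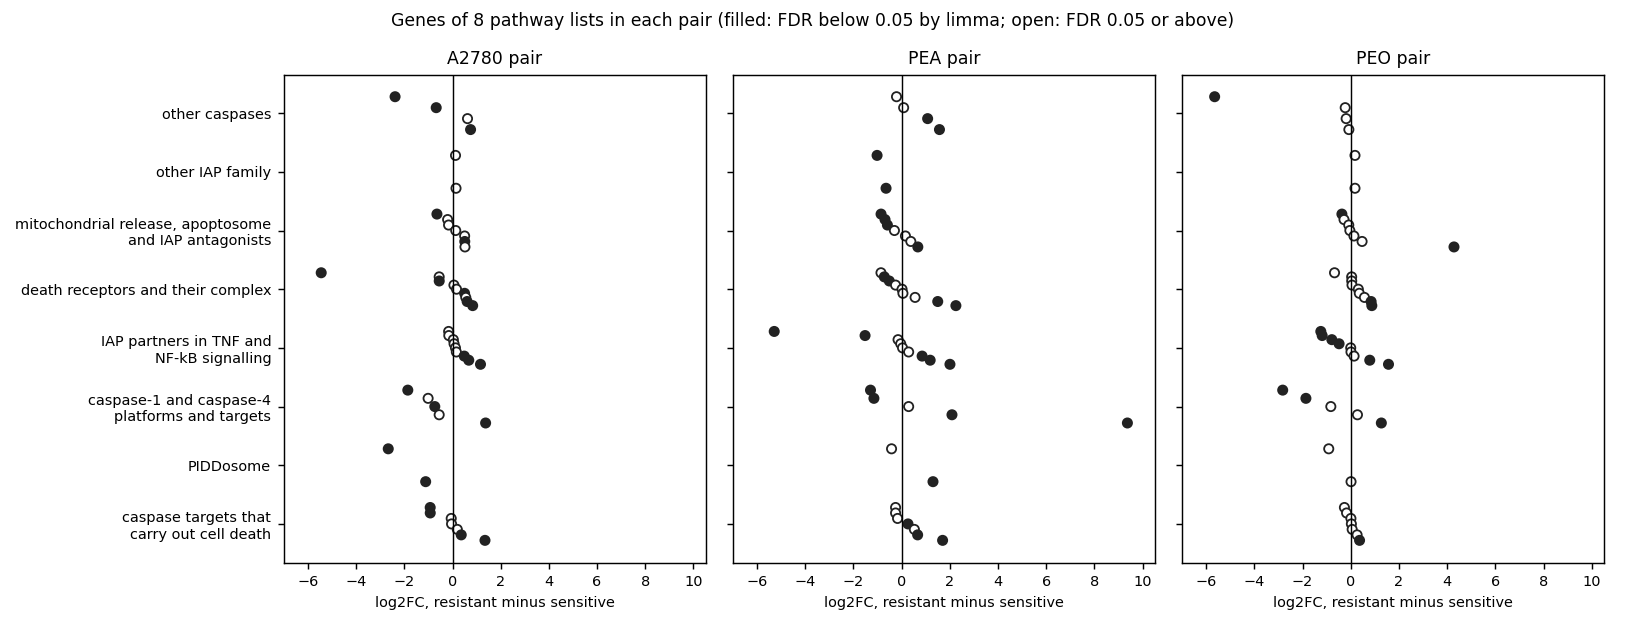
log2FC (resistant minus sensitive line) of the 45 genes of 8 pathway lists in the A2780, PEA and PEO pairs, 1 point a gene, filled where the FDR was below 0.05 by limma. The points furthest out are IL1B in the PEA pair, CASP10 in the PEO pair, TNFSF10 in the A2780 pair and MAP3K14 in the PEA pair; the positions of the 3 genes at the floor of a line depend on the 0.5 reads added.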

How the data were processed

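Strand-specific libraries of ribosome-depleted total RNA were made with 3 replicates per line. According to the submitters' processing notes and methods, the tools were Bowtie2, featureCounts and limma on hg19, with versions not given in the sources used here. The deposited table gives 12853 genes as log2 CPM, computed by the authors after an addition of 0.5 reads per count and a rescaling of library sizes. Its values led back to whole reads in 100% of cases (within 0.01 reads), which gave the depth and the floor of 3 reads. CPM values printed here are the deposited log2 values put back on the linear scale, so they include the added 0.5 reads, and low levels depend on it. ATAC-seq and platinum adduct data were not used here.

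The deposited log2 values were fitted with limma 3.58.1 in R 4.3.3 (a mean per line over 18 libraries, the variance trended on mean expression, Benjamini-Hochberg adjustment over 12853 genes), the same tool and thresholds as the study's methods name (FDR below 0.05, |log2FC| above 2). Calculations were tested on simulated data. The genes described, the pathway and marker lists and the tests were chosen with earlier results of these data known. Named besides the members are, per list, the gene with the largest called change in each pair and CFLAR, APAF1, DIABLO, XAF1 and TRAF2, the 2 genes most alike to each member with a mean log2 value above 2, and the nearest gene of the table on either side. A few named by the rule are left out of the text but stay in the list counts. BIRC6 and NFKBIA, and CASP10 and GSDMD in the A2780 pair, were named after their values were seen. Gene spans on GRCh37 came from GENCODE (12642 identifiers matched, 211 not), and exon lengths from the same annotation. CASP8 overlaps FLACC1 and CASP9 overlaps CELA2B on the opposite strand, neither of them in the table, and the strand setting of the counting is not given in the sources used here. RefSeq start windows (GRCh38.p14) were found for 7 members.

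The alternatives tried were separate fits for each pair, a filter on mean log2 above 0, quantile normalization, the replicate block, no trend, 2 reads added, leaving out each library of a pair in turn, and, chosen after seeing the data, voom weights and median-of-ratios scaling of the recovered reads.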

Additional observations from a re-analysis of the deposited data

Results flagged for a closer look

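The difference between the resistant and the sensitive line was not the same in all pairs for 6 of the 7 genes, by limma's test of the difference of log2FC at an FDR below 0.05. Over the alternatives this count ran from 5 to 7. Such differences were common in the whole table, at 57.5%, 47.5% and 58.7% of genes for the 3 comparisons of pairs.

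Of the A2780 pair less the PEA pair, the differences of log2FC were 0.97 for CASP8, 0.39 for CASP2, -0.51 for XIAP and 4.17 for BIRC3. Of the A2780 pair less the PEO pair, they were 0.85 for CASP8, 1.31 for CASP9, 1.04 for CASP2, -1.08 for BIRC2 and 5.10 for BIRC3. Of the PEA pair less the PEO pair, they were 0.65 for CASP2, 0.34 for XIAP and -1.54 for BIRC2. The values of BIRC3 rest on an A2780 line with 0 to 3 reads per library, so their size depends on the 0.5 reads added to each count. No group here held more than 3 libraries, so single libraries were not examined for standing apart.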

How the results depend on the processing

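The 21 log2FC values of the 7 genes in 3 pairs were each recomputed in 14 settings, which gave 294 values. Of these values 255 kept the direction and the side of the threshold, 17 lost a call, 13 gained a call and 9 changed sign. The sign changed where log2FC lay near 0 or reads were few. For BIRC2 in the PEO pair it became -0.040 without PEO1 replicate 2, -0.036 without PEO1 replicate 3, -0.0077 without PEO4 replicate 1 and -0.00074 without PEO4 replicate 3, against up to 0.081 without any other library of the pair. For CASP2 in the PEA pair it became -0.067 with quantile normalization and -0.012 without PEA1 replicate 1, against up to 0.12 without another library. For CASP4 in the A2780 pair it became 0.03 without A2780 replicate 1 and 0.28 without CP70 replicate 2, and -1.20 without CP70 replicate 3 was a call made from reads at the floor. For CASP9 in the PEA pair it became -0.040 without PEA1 replicate 2, against up to 0.82 without PEA1 replicate 3.

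The number of genes changed in the PEA pair rose from 2 to 4 with voom weights, with the pair fitted alone and with the replicate block. In the PEO pair it fell from 5 to between 2 and 4 when each library was left out in turn. Past the limit of 2, the A2780 pair had 0 with quantile normalization, and the PEO pair had 0 with 2 reads added, with voom weights and with median-of-ratios scaling, and 0 to 1 when each library was left out in turn. The linear model gave 5 genes with voom weights and 0 with the 3 pair differences as replicates. Quantile normalization moved the median log2FC of all genes in the PEA pair by -0.11. The cause of these changes was not tested.

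The replicate numbers were not taken to pair the libraries. Deviations of same-numbered libraries from their line means correlated at -0.18 to 0.22, with no reference value to judge these by, so pairing was not tested. With the replicate block 5 genes changed in CP70, 4 in PEA2 and 4 in PEO4, and the linear model gave 3. TMM scaling and count tests on the recovered reads (edgeR, DESeq2) had been planned and were not run. The deposited unit is log2 CPM, and voom weights and median-of-ratios scaling of the recovered reads were run instead. Depth limits CASP4 and BIRC3 in the A2780 pair and CASP9 in PEA1.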
